A study of Mus musculus with 18 samples.

Results

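Caspases are cysteine proteases that cut proteins after aspartate, and the genes described here were Casp1, Casp2, Casp4, Casp6, Casp8, Casp9 and Casp12. They were taken as every probe set that the platform annotation paired with 1 of these symbols alone. That gave 9 probe sets of 7 genes, of 22626 probe sets and 12393 named genes in all. Casp9 and Casp12 had 2 probe sets each, and the other 5 genes had 1 each. The arrays came from mouse kidneys on the C57BL/6 background, 3 days after the right ureter was ligated (unilateral ureteral obstruction, UUO) or after the same operation with no ligation (sham). The 6 groups were TIMP2-/- UUO, TIMP2-/- sham, TIMP3-/- UUO, TIMP3-/- sham, WT UUO and WT sham, with 3 Affymetrix Mouse430A_2 arrays in each and 18 in all, described by the labels as biological replicates. TIMP2 and TIMP3 are tissue inhibitors of metalloproteinases. The knockouts are whole-animal genotypes by their labels, which do not give the deleted part of either gene, and the tissue was the whole kidney of the operated side. An array is named by its group and its replicate number.

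Caspases are made as inactive zymogens. Initiator caspases are activated on protein platforms: caspase-8 at death receptors such as Fas and the TNF receptor, caspase-9 on the apoptosome that forms when mitochondria release cytochrome c, and caspase-2 on the PIDDosome after DNA damage. Effector caspases such as caspase-6 then cut structural proteins, lamin A among them. The inflammatory caspases stand apart. Caspase-1, activated by inflammasomes, matures interleukin-1β and interleukin-18, and mouse caspase-4, long called caspase-11, senses bacterial lipopolysaccharide in the cytosol. Both cut gasdermin D, the pore protein of pyroptosis. Mouse caspase-12 resides at the endoplasmic reticulum and has been tied to its stress response. In the obstructed kidney, tubule cells die and macrophages enter the interstitium.

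Casp1, Casp4 and Casp12 lie next to each other on chromosome 9 in the RefSeq gene table, in that order, between Gria4 and Pdgfd. Their promoters are shown because the levels of these neighbours moved together across the obstructed kidneys. Each sequence runs from 250 bases before to 50 bases after a gene start of RefSeq (build GRCm38.p6, + strand). Capitals mark CACGTG in Casp1, matches to the NF-κB motif in Casp4, and TTCNNNGAA and CCAAT in Casp12, each found on either strand. The Casp1 promoter lies at chr9:5298267-5298566, that of Casp4 at chr9:5308599-5308898 (the first of 2 listed starts), and that of Casp12 at chr9:5345226-5345525.
Casp1: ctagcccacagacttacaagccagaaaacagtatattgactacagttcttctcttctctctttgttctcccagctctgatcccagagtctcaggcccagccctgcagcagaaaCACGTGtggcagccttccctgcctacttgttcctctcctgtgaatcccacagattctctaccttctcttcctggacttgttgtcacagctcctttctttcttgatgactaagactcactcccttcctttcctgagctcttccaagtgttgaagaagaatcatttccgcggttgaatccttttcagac
Casp4: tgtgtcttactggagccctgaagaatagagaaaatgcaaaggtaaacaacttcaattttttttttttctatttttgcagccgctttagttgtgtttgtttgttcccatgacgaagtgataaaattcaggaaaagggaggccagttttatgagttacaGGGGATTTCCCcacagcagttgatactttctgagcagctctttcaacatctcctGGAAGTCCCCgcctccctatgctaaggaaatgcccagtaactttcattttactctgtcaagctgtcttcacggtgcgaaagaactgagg
Casp12: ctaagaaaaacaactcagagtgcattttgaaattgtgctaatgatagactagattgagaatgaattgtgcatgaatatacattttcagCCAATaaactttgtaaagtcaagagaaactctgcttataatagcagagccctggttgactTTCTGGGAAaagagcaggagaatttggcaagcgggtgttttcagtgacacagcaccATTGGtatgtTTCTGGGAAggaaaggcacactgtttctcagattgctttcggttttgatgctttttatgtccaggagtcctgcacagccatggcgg
In the Casp4 promoter the NF-κB motif, which is bound by the factors of that name, matched at positions -93 and -92, which overlap, and at -39 relative to the start. The Casp12 promoter held TTCTGGGAA at -102 and again at -36, each a match to TTCNNNGAA, the GAS element bound by STAT factors. It also held CCAAT at -162 and, on the opposite strand, at -46. In the Casp1 promoter CACGTG, an E-box, stood at -137. Among all 32851 promoters of the table, 8.46% held the NF-κB motif, 8.3% TTCNNNGAA, 37.4% CCAAT and 7.15% CACGTG. No caspase promoter, of 8 for the 7 genes, held the core of the interferon-stimulated response element or TGANTCA (the AP-1 site), which 3.44% and 7.81% of all promoters held. The promoters of Casp2, Casp6 and Casp9 were richer in G and C (63.7%, 62.0% and 66.0%) than those of Casp1, Casp4, Casp12 and Casp8 (48.0%, 42%, 41.0% and 42%), with a median of 52.7% over all promoters. GGGCGG, the GC box, was found in the promoters of Casp2, Casp6 and Casp9 and in none of the other caspase promoters, and in 35.7% of all promoters.

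The deposited values are linear intensities, and a value is the brightness of a probe set on 1 array. Array medians lay between 201 and 247 and the 25th percentile between 56.8 and 64.2, so a group at or under that percentile is near background and a change from it is inexact in size. The first principal component (64.8% of the variance) separated UUO arrays (-120.8 to -2.4) from sham arrays (27.2 to 78.2). The second (16.6%) set off WT sham 3 (-81.4) and TIMP3-/- UUO 2 (-55.2), with all other arrays between -30.7 and 44.5. WT UUO 2 carried hepatocyte transcripts, with an albumin (Alb) intensity of 28106, against 53.96 to 933.2 elsewhere. Part of the calls that change without these 3 arrays are given below with both values, and others only as counts or not at all. Timp3 was 20.15 to 60.81 over its 4 probe sets in TIMP3-/- kidneys. Timp2 was reduced in TIMP2-/- kidneys but kept a signal, and whether its probe sets lie outside the deleted part is not given. The brightest Timp2 probe set was 742.2 to 897.1 in TIMP2-/- UUO, against 3521 to 4689 in WT UUO. After sham it was 570.8 to 680.9 in TIMP2-/-, against 970.6 to 1475 in WT, while other Timp2 probe sets overlapped there (543.6 to 661.5, against 545.5 to 819.3, and 84.57 to 175, against 124.7 to 193.6). None of the 10 proximal tubule markers, checked because the tissue is labelled kidney, was at or under the 25th percentile on all arrays of a group.

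The first question was which caspase transcripts changed with obstruction in each genotype. Casp4, an inflammatory caspase, and Casp2 rose in every genotype. Casp1, Casp8 and both Casp12 probe sets rose in TIMP3-/-, Casp6 rose in TIMP2-/- and 1 Casp12 probe set in WT. Casp9 fell in both knockouts. The test was limma over all probe sets, with Benjamini-Hochberg adjustment and a threshold of 0.05. In TIMP2-/- kidneys 4 of the 9 caspase probe sets passed, 3 higher and 1 lower, where 35% of all probe sets passed (14.1% higher and 20.9% lower). In TIMP3-/- kidneys 8 passed, 6 higher and 2 lower, where 62.5% of all passed (25% higher and 37.5% lower). In WT kidneys 3 passed, all higher, where 30.8% of all passed (14.7% higher and 16.1% lower). The median log2 fold change of the 9 was 0.42 in TIMP2-/-, 0.48 in TIMP3-/- and 0.63 in WT, against -0.12, -0.18 and -0.12 over all probe sets. The share of caspase probe sets that passed in TIMP2-/- and WT was thus near that of all probe sets. The UUO and sham arrays did not overlap for 9 of the 9 in TIMP2-/-, 8 in TIMP3-/- and 7 in WT, where they did not for 53.2%, 61.9% and 47.8% of all probe sets. Without the 3 arrays that stood apart, 7, 8 and 3 caspase probe sets passed in TIMP2-/-, TIMP3-/- and WT. With 1 probe set per gene, 44.4%, 55.8% and 18.8% of all genes then passed. None of these 3 arrays was from a TIMP2-/- kidney. The TIMP2-/- fold changes were thus the same, and the count there differed through the spread pooled over the groups and the adjustment.

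**Figure D1:**
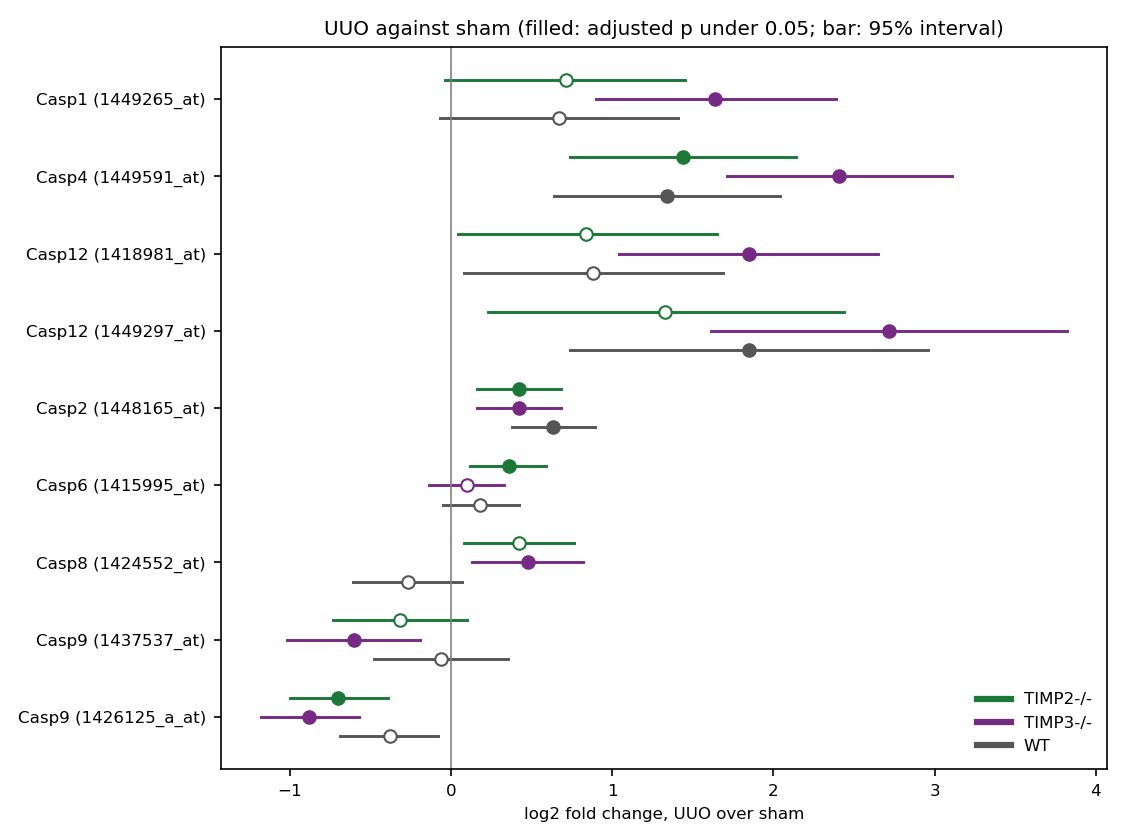
Log2 fold change of each caspase probe set in UUO over sham kidneys, by genotype (horizontal axis, log2 units). Points are estimates from limma, bars their 95% intervals, and filled points passed at an adjusted p under 0.05. Casp4 lies right of 0 in all 3 genotypes, farthest in TIMP3-/- (2.41), and the lower row of Casp9 lies left of 0.

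Among the inflammatory caspases, Casp4 rose in every genotype. In TIMP2-/- kidneys Casp4 had intensities of 143.7, 127.2 and 82.58 after UUO, against 36.95, 40.2 and 50.62 after sham. In TIMP3-/- kidneys it had 238.1, 457.3 and 178.2 after UUO, against 60.75, 42.92 and 49.23 after sham. In WT kidneys it had 142.1, 216.5 and 94.45 after UUO, against 58.79, 49.23 and 62.2 after sham. Every UUO array was above every sham array, and all 9 sham values were at or under their array's 25th percentile, so the sham level is near background. The log2 rise was 1.44 ± 0.33 in TIMP2-/- (SE, adjusted p = 0.00471), 2.41 ± 0.33 in TIMP3-/- (adjusted p = 3.41e-05) and 1.34 ± 0.33 in WT (adjusted p = 0.00653). These 3 calls held in every alternative run. In bulk tissue, fewer cells of a type and less RNA per cell cannot be told apart, here or below.

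Casp1 passed the test in TIMP3-/- kidneys and in neither other genotype, and its values were the most uneven in TIMP3-/- UUO. In TIMP3-/- kidneys Casp1 had intensities of 261.4, 218.3 and 74.23 after UUO, against 48.95, 56.67 and 49.92 after sham. In TIMP2-/- kidneys it had 91.68, 67.23 and 85.2 after UUO, against 37.49, 54.7 and 58.74 after sham. In WT kidneys it had 84.4, 109 and 61.76 after UUO, against 53.86, 52.61 and 49.72 after sham. The UUO arrays lay above the sham arrays in each genotype. TIMP3-/- UUO 3 stayed near the arrays of the other genotypes, and the other TIMP3-/- UUO arrays were far above it. The log2 difference was 1.64 ± 0.35 in TIMP3-/- (SE, adjusted p = 0.00114), 0.71 ± 0.35 in TIMP2-/- (adjusted p = 0.123) and 0.67 ± 0.35 in WT (adjusted p = 0.155). The TIMP3-/- call held in every alternative run, but the difference between the TIMP3-/- and WT responses did not pass (0.97 ± 0.49, adjusted p = 0.215). All 9 sham values of Casp1 were at or under the 25th percentile.

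Casp12 was measured by a pair of probe sets that moved alike but differed in which calls passed. For 1418981_at, TIMP3-/- kidneys had intensities of 223.4, 503.9 and 125 after UUO, against 72.5, 67.85 and 61.42 after sham. TIMP2-/- kidneys had 134.3, 113 and 88.85 after UUO, against 71.2, 51.53 and 63.48 after sham, and WT kidneys had 109.9, 210.9 and 94.86, against 73.38, 67.2 and 71.06. The UUO arrays did not overlap the sham arrays in any genotype, and TIMP3-/- UUO 2 was the highest. The log2 difference of 1418981_at was 1.85 ± 0.38 in TIMP3-/- (SE, adjusted p = 0.000869), 0.84 ± 0.38 in TIMP2-/- (adjusted p = 0.0916) and 0.88 ± 0.38 in WT (adjusted p = 0.0875). The second probe set, 1449297_at, had 96.59, 73.72 and 38.72 in TIMP2-/- UUO, 166.8, 456.6 and 74.09 in TIMP3-/- UUO and 167.8, 158.5 and 69.94 in WT UUO, against 22.06 to 41.69 over the 9 sham arrays. All of those sham values were at or under the 25th percentile. It rose by 2.72 ± 0.52 in TIMP3-/- (SE, adjusted p = 0.000541) and by 1.85 ± 0.52 in WT (adjusted p = 0.0142), and did not pass in TIMP2-/- (1.33 ± 0.52, adjusted p = 0.0578). Without TIMP3-/- UUO 2, WT UUO 2 and WT sham 3, the TIMP3-/- values were 1.32 and 2.04 on the log2 scale, and both passed. The WT call of 1449297_at was lost without WT UUO 1 (adjusted p = 0.0597), WT UUO 2 (0.0607) or WT sham 2 (0.0512).

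**Figure D2:**
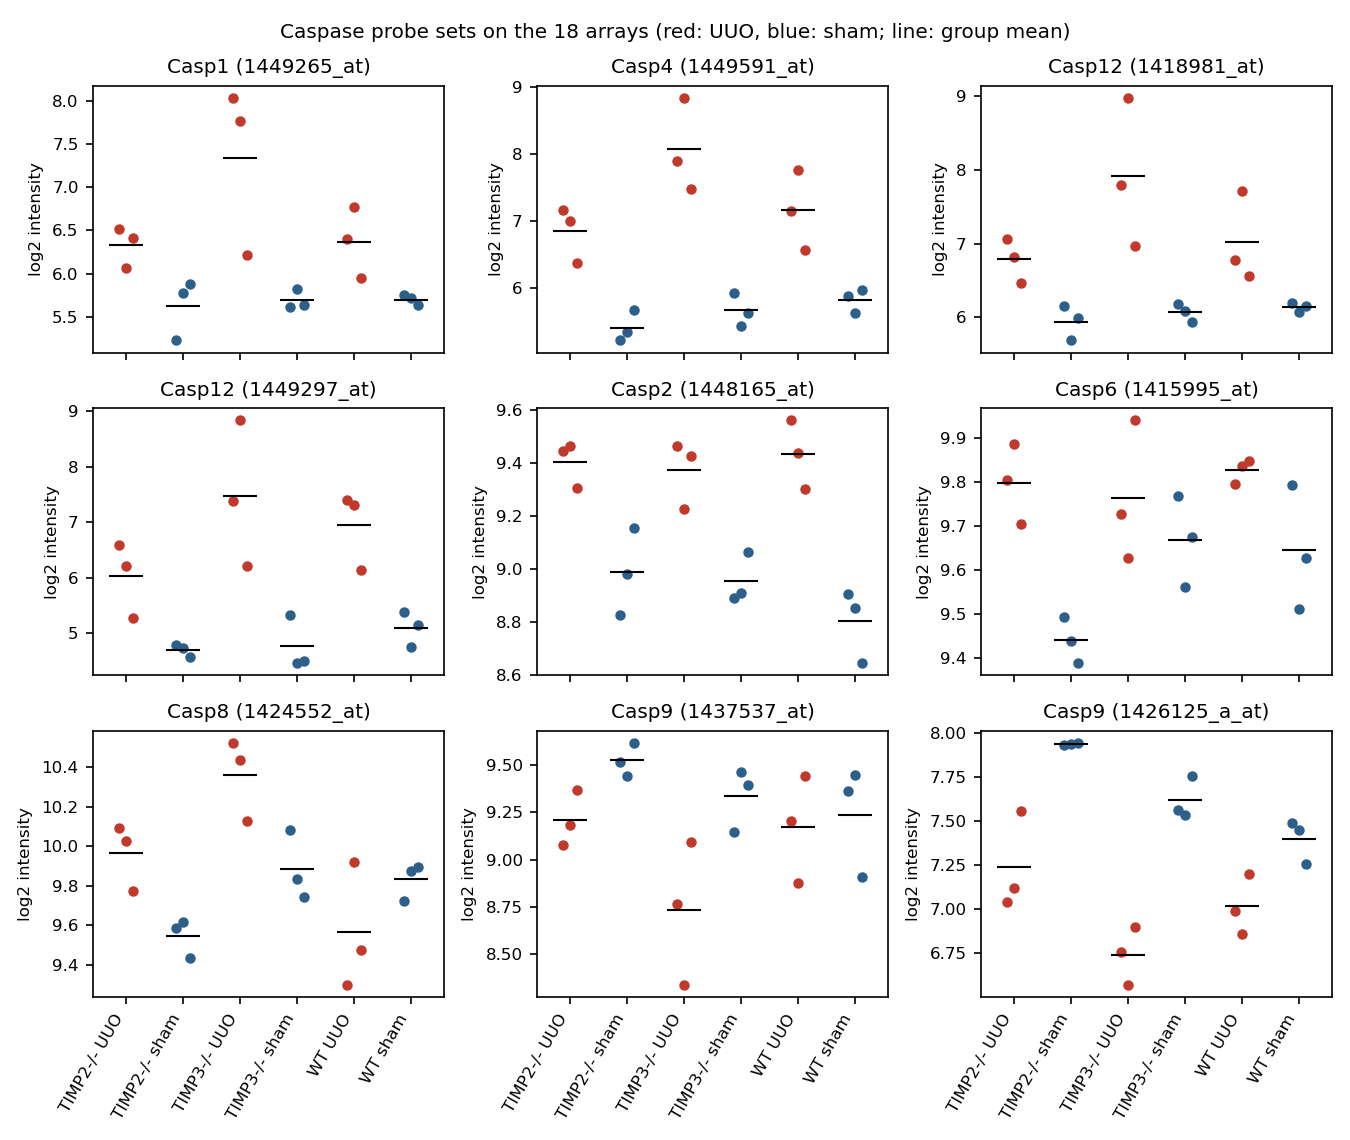
Log2 intensity of the 9 caspase probe sets on each of the 18 arrays (vertical axis), by group (horizontal axis). Red points are UUO arrays, blue points sham arrays and lines the group means. Casp1, Casp4 and Casp12 reach their highest values in TIMP3-/- UUO, and Casp8 is higher in TIMP3-/- UUO than in WT UUO.

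Casp2, the initiator tied to DNA damage, rose by a similar small amount in every genotype. Its intensity was 697.9, 706.2 and 633.3 in TIMP2-/- UUO, against 453.4, 505 and 570.5 in TIMP2-/- sham. It was 706.3, 598.8 and 688.9 in TIMP3-/- UUO, against 474, 480 and 535.1 in TIMP3-/- sham, and 755.7, 694.1 and 631.6 in WT UUO, against 479.8, 461.9 and 400.3 in WT sham. The 9 UUO arrays (598.8 to 755.7) did not overlap the 9 sham arrays (400.3 to 570.5). The log2 rise was 0.42 ± 0.12 in TIMP2-/- (SE, adjusted p = 0.0163), 0.42 ± 0.12 in TIMP3-/- (adjusted p = 0.00814) and 0.63 ± 0.12 in WT (adjusted p = 0.00116). The WT call held in every alternative run. The knockout calls depended on scaling: with each array centred on its median, the rise was 0.27 in TIMP2-/- (adjusted p = 0.103) and 0.19 in TIMP3-/- (adjusted p = 0.212), against 0.5 in WT (adjusted p = 0.00879). The TIMP2-/- call was also lost without TIMP2-/- UUO 1 (adjusted p = 0.0619), TIMP2-/- UUO 2 (0.0657) or TIMP2-/- sham 1 (0.0673), and with quantile normalization (0.0545).

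Casp6, the effector that cuts lamin A, passed in TIMP2-/- kidneys only. There its intensity was 894, 945.4 and 834.3 after UUO, against 720.3, 693.5 and 670.2 after sham, with no overlap. In TIMP3-/- kidneys it ranged from 790.1 to 981.7 after UUO, against 754.6 to 871.4 after sham, and in WT kidneys from 887.8 to 920.5, against 729.2 to 887.2. The log2 difference was 0.36 ± 0.11 in TIMP2-/- (SE, adjusted p = 0.022), 0.10 ± 0.11 in TIMP3-/- (adjusted p = 0.453) and 0.18 ± 0.11 in WT (adjusted p = 0.222). That call was lost without TIMP2-/- UUO 1, TIMP2-/- UUO 2, TIMP2-/- sham 2 or TIMP2-/- sham 3 (adjusted p = 0.068, 0.0937, 0.0552 and 0.074) with arrays centred on their median (0.21, adjusted p = 0.162) and with quantile normalization (0.30, adjusted p = 0.0518). The difference between the TIMP2-/- and WT responses was 0.18 ± 0.16 and did not pass (adjusted p = 0.664). Relative to WT UUO, the 95% interval of Casp6 was -0.26 to 0.21 in TIMP2-/- UUO and -0.30 to 0.17 in TIMP3-/- UUO on the log2 scale.

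Casp8, the initiator of the death receptor pathway, rose in TIMP3-/- kidneys. In TIMP3-/- kidneys Casp8 had intensities of 1474, 1387 and 1118 after UUO, against 1083, 913.1 and 856.3 after sham. In TIMP2-/- kidneys it had 1092, 1044 and 873.6 after UUO, against 769.1, 785.9 and 690.4 after sham. In WT kidneys it had 628.7, 968.2 and 711 after UUO, against 845.6, 940.4 and 952.4 after sham. The UUO arrays were above the sham arrays in both knockouts, and in WT they overlapped, with WT UUO 1 and WT UUO 3 below every WT sham array. The log2 difference was 0.48 ± 0.16 in TIMP3-/- (SE, adjusted p = 0.0185), 0.42 ± 0.16 in TIMP2-/- (adjusted p = 0.0548) and -0.27 ± 0.16 in WT (adjusted p = 0.215). With arrays centred on their median the TIMP3-/- value was 0.24 (adjusted p = 0.147), and it also missed the threshold without TIMP3-/- UUO 1, TIMP3-/- UUO 2, TIMP3-/- sham 2 or TIMP3-/- sham 3 (adjusted p = 0.0727, 0.0574, 0.0547 and 0.0765) or with only the arrays compared (0.0561).

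Casp9, the initiator of the apoptosome, was the caspase that fell. Its probe set 1426125_a_at had intensities of 131.7, 139 and 188.5 in TIMP2-/- UUO, against 244.3, 244.9 and 246.6 in TIMP2-/- sham. It had 108.3, 95.05 and 119.4 in TIMP3-/- UUO, against 189, 185.5 and 216.7 in TIMP3-/- sham, and 127.2, 116.1 and 147.1 in WT UUO, against 179.7, 175.1 and 153 in WT sham. No UUO array reached the sham arrays of its genotype. It fell by 0.70 ± 0.14 on the log2 scale in TIMP2-/- (SE, adjusted p = 0.00253) and by 0.88 ± 0.14 in TIMP3-/- (adjusted p = 0.000159), and these calls held in every alternative run. In WT the difference was -0.38 ± 0.14 (adjusted p = 0.055). The other probe set, 1437537_at, had 540.3, 580.6 and 662 in TIMP2-/- UUO, against 731.7, 696.1 and 786.5 in TIMP2-/- sham. It had 435, 323.3 and 546.8 in TIMP3-/- UUO, against 567.7, 706.1 and 672.5 in TIMP3-/- sham, and in WT its ranges of 470.1 to 696.6 and 479.8 to 697.7 overlapped almost wholly. It fell in TIMP3-/- (-0.60 ± 0.20, adjusted p = 0.0153), while TIMP2-/- (-0.32 ± 0.20, adjusted p = 0.213) and WT (-0.06 ± 0.20, adjusted p = 0.825) did not pass. Its TIMP3-/- call was lost without TIMP3-/- UUO 2 (-0.41, adjusted p = 0.0895) or TIMP3-/- sham 2 (-0.54, adjusted p = 0.0562), and with only the arrays compared (adjusted p = 0.0561).

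The next question was whether the loss of TIMP2 or TIMP3 altered caspase levels in the obstructed kidney. Casp8 was higher in TIMP3-/- UUO than in WT UUO, and in TIMP2-/- UUO Casp4 was lower and 1 of the Casp9 probe sets higher than in TIMP3-/- UUO. Between TIMP2-/- UUO and WT UUO none of the 9 caspase probe sets passed, where 0.0486% of all did, and 1 of the 9 had an unadjusted p under 0.05 (limma), where 3.4% of all did. That was Casp8, at 0.40 ± 0.16 (adjusted p = 1). The groups overlapped for each of the 9, and did not for 8.62% of all. The other differences from WT UUO were -0.92 ± 0.52 for Casp12 1449297_at, -0.24 ± 0.38 for Casp12 1418981_at, -0.31 ± 0.33 for Casp4 and -0.04 ± 0.35 for Casp1. They were -0.03 ± 0.12 for Casp2, -0.03 ± 0.11 for Casp6, and 0.03 ± 0.20 and 0.22 ± 0.14 for Casp9 1437537_at and 1426125_a_at. Between TIMP3-/- UUO and WT UUO 1 passed, where 0.707% of all did, and 5 of the 9 had an unadjusted p under 0.05, where 20.5% of all did. Between TIMP2-/- UUO and TIMP3-/- UUO 2 passed, where 7.06% of all did, and 7 had an unadjusted p under 0.05, where 30.2% of all did.

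Casp8 was 1118 to 1474 in TIMP3-/- UUO, against 628.7 to 968.2 in WT UUO, with no overlap, which held for 15.1% of all probe sets. The log2 difference was 0.80 ± 0.16 (SE, adjusted p = 0.0341), and without the 3 arrays that stood apart it was 0.94 (adjusted p = 0.0238). It missed the threshold without WT UUO 1 (0.67, adjusted p = 0.137), WT UUO 3 (0.76, 0.167), TIMP3-/- UUO 1 (0.72, 0.124) or TIMP3-/- UUO 2 (0.76, 0.154), and with only the 6 arrays compared (adjusted p = 0.498). The UUO response of Casp8 was larger by 0.75 ± 0.23 in TIMP3-/- and by 0.69 ± 0.23 in TIMP2-/- than in WT, and neither difference passed (unadjusted p = 0.00496 and 0.00848, adjusted p = 0.167 and 0.551). Over all 9 probe sets no difference between responses passed in any of the 3 pairs of genotypes, nor did any of the 22626 probe sets. At an unadjusted p under 0.05 there were 1 caspase probe set for TIMP2-/- less WT, 3 for TIMP3-/- less WT and 0 for TIMP2-/- less TIMP3-/-, beside 8.91%, 25.9% and 10% of all probe sets. The others of the TIMP3-/- less WT response were Casp4 (1.08 ± 0.47, adjusted p = 0.175) and Casp9 1426125_a_at (-0.49 ± 0.20, adjusted p = 0.17). The 9 estimates ran between -0.52 (Casp12 1449297_at) and 0.69 (Casp8) for TIMP2-/- less WT, between -0.54 (Casp9 1437537_at) and 1.08 (Casp4) for TIMP3-/- less WT, and for TIMP2-/- less TIMP3-/- between -1.38 for Casp12 1449297_at and 0.29 for Casp9 1437537_at.

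**Figure D3:**
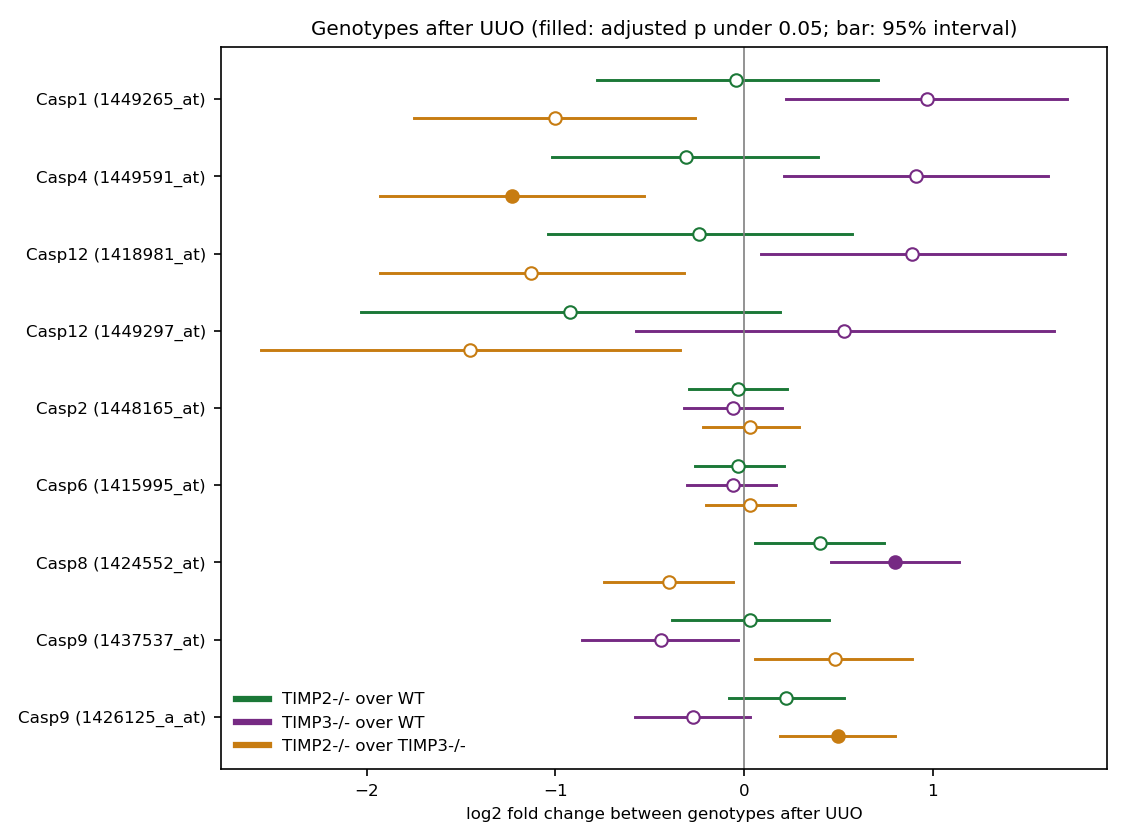
Log2 fold change of each caspase probe set between genotypes after UUO (horizontal axis, log2 units). Points are limma estimates, bars their 95% intervals, and filled points passed at an adjusted p under 0.05. The filled points are Casp8 in TIMP3-/- over WT (0.80), and Casp4 (-1.23) and a Casp9 probe set (0.50) in TIMP2-/- over TIMP3-/-.

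Casp4 was 82.58 to 143.7 in TIMP2-/- UUO, against 178.2 to 457.3 in TIMP3-/- UUO, a log2 difference of -1.23 ± 0.33 (SE, adjusted p = 0.0388). Casp9 1426125_a_at was 131.7 to 188.5 in TIMP2-/- UUO, against 95.05 to 119.4 in TIMP3-/- UUO, a difference of 0.50 ± 0.14 (adjusted p = 0.0496). The groups did not overlap for these probe sets or for Casp8, and 29.6% of all probe sets did not overlap. The brighter Casp9 probe set, 1437537_at, overlapped and did not pass (0.48 ± 0.20, adjusted p = 0.122), nor did Casp8 (-0.40 ± 0.16, adjusted p = 0.117). Both calls were lost without any 1 of the TIMP2-/- UUO arrays, without TIMP3-/- UUO 1 or without TIMP3-/- UUO 2 (-1.39 to -0.84 for Casp4, adjusted p = 0.0609 to 0.187, and 0.34 to 0.60 for Casp9, adjusted p = 0.06 to 0.229). Without TIMP3-/- UUO 3 both passed (adjusted p = 0.00792 and 0.0204). Without the 3 arrays that stood apart the values were -0.84 (adjusted p = 0.0816) and 0.41 (adjusted p = 0.137). For Casp1 and the Casp12 probe sets the differences were -1 ± 0.35, -1.13 ± 0.38 and -1.45 ± 0.52, none of which passed (adjusted p = 0.0821, 0.074 and 0.0895). Against WT UUO, TIMP3-/- UUO differed by 0.97 ± 0.35 for Casp1, 0.91 ± 0.33 for Casp4 and 0.89 ± 0.38 for Casp12 1418981_at, and these did not pass (adjusted p = 0.16, 0.16 and 0.206). Nor did Casp12 1449297_at (0.53 ± 0.52, adjusted p = 0.57), Casp9 1437537_at (-0.44 ± 0.20, adjusted p = 0.22) or Casp9 1426125_a_at (-0.27 ± 0.14, adjusted p = 0.286). For Casp2 the intervals between obstructed genotypes all lay within -0.32 and 0.29 on the log2 scale, and Casp6 differed by 0.03 ± 0.11 between TIMP2-/- UUO and TIMP3-/- UUO. These comparisons share arrays, so their values are not independent of each other.

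After sham, no caspase probe set passed in TIMP2-/- against WT or in TIMP3-/- against WT, where 0.0221% and 0.0442% of all probe sets did, and 1 and 0 had an unadjusted p under 0.05 (limma), where 25.8% and 10.6% of all did. The one was Casp9 1426125_a_at, at 244.3 to 246.6 in TIMP2-/- sham, against 153 to 179.7 in WT sham (0.54 ± 0.14, adjusted p = 0.143). Its groups did not overlap, while after UUO the TIMP2-/- and WT arrays did. Casp6 and Casp8 were lower on every TIMP2-/- sham array than on every WT sham array (-0.20 ± 0.11 and -0.29 ± 0.16, adjusted p = 0.24 and 0.254). These 3 probe sets of 9 did not overlap, where 41.5% of all did not. The other TIMP2-/- sham differences from WT sham were -0.08 for Casp1, -0.42 for Casp4, -0.20 and -0.40 for Casp12, 0.19 for Casp2 and 0.29 for Casp9 1437537_at. Those of TIMP3-/- sham were -0.01 for Casp1, -0.16 for Casp4, -0.07 and -0.33 for Casp12, 0.15 for Casp2, 0.02 for Casp6, 0.05 for Casp8, and 0.10 and 0.22 for Casp9. There 1 probe set, Casp9 1426125_a_at, did not overlap, where 14.6% of all did not.

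Casp1, Casp4, Casp12 and, in the opposite direction, Casp9 varied together among the obstructed kidneys. Over the 9 UUO arrays, with each gene's brightest probe set, 21 pairs of genes were compared by exact 2-sided permutation tests, and the r of 6 pairs passed after Benjamini-Hochberg adjustment. Casp4 and Casp12 had r = 0.96 and rho = 0.97 (exact permutation p = 5.51e-05 and 0.000165, adjusted p = 0.000444 and 0.00174), and r was 0.92 without the 2 arrays farthest from the median of Casp4. Casp12 and Casp9 ran opposite, with r = -0.99 and rho = -0.98 (exact permutation p = 1.38e-05 and 4.96e-05, adjusted p = 0.000289 and 0.00104), and r was -0.95 without the 2 arrays farthest from the median of Casp12. With each genotype's mean removed, r was 0.95 for Casp4 with Casp12 and -0.98 for Casp12 with Casp9, so the relation was present within genotypes. Casp1 with Casp4 gave r = 0.79 and rho = 0.75 (exact permutation p = 0.00993 and 0.0255, adjusted p = 0.0347 and 0.0595), and r was 0.54 without the 2 farthest arrays by Casp1. The other 3 pairs were Casp1 with Casp12 (r = 0.84), Casp1 with Casp9 (-0.85) and Casp4 with Casp9 (-0.98), and the rho of 4 of the 6 pairs passed as well. No r with Casp2, Casp6 or Casp8 passed, but the rho of Casp8 did with Casp12 and with Casp9. Casp8 with Casp12 gave r = 0.70 and rho = 0.80 (exact permutation, adjusted p = 0.0729 and 0.0484). Casp8 with Casp9 gave r = -0.75 and rho = -0.82 (exact permutation, adjusted p = 0.0511 and 0.0452). Without the 2 farthest arrays, by Casp12 and by Casp8, these r were 0.42 and -0.78. For Casp2 and Casp6 the r with Casp12 was -0.34 and -0.58 (exact permutation p = 0.376 and 0.105). The 9 arrays hold 3 genotypes and 1 tissue, and these genes share the arrays' overall composition. The permutations ignored genotype, so differences between genotypes enter these p-values. The share of all genes that correlate this strongly was not counted, so the relation is not shown to be particular to these caspases.

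**Figure D4:**
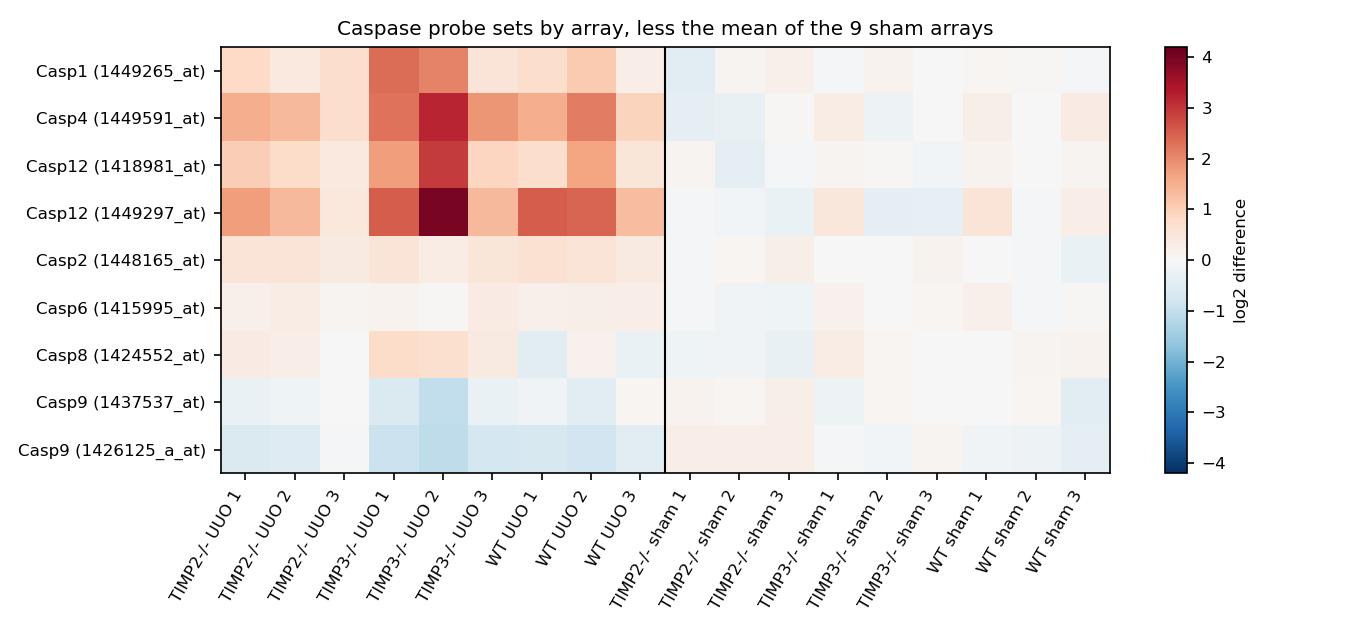
Log2 intensity of each caspase probe set (rows) on each array (columns) less the mean of the 9 sham arrays, in colour from blue (lower) to red (higher). The UUO arrays stand left of the line. TIMP3-/- UUO 2 shows the strongest red in Casp4 and Casp12 and the strongest blue in Casp9.

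Markers of several cell types changed with UUO as well, while other lists were divided or changed little. Of all genes, 15.7%, 25.6% and 16.6% rose in TIMP2-/-, TIMP3-/- and WT, and 21.6%, 38.8% and 16% fell. All 15 macrophage and monocyte markers rose with UUO in each genotype, and their summed intensity was 59620 to 61270 in TIMP2-/- UUO, against 10380 to 12480 in TIMP2-/- sham. It was 76440 to 110100 in TIMP3-/- UUO, against 10850 to 13640 in TIMP3-/- sham, and 49360 to 89910 in WT UUO, against 7416 to 10220 in WT sham. In every sham group 1 of the 15 was at or under the 25th percentile on all arrays, and none was after UUO. Of 10 proximal tubule markers, 9 fell in TIMP2-/-, 10 in TIMP3-/- and 10 in WT (8 without the 3 arrays that stood apart). Their summed intensity was 74030 to 99750, 42830 to 53080 and 47560 to 96790 in these UUO groups, against 144500 to 151900 over the sham groups. Markers of the loop of Henle and the later nephron, 9 genes, fell too, 6, 8 and 6 of them in TIMP2-/-, TIMP3-/- and WT, with sums of 31430 to 35440, 17620 to 31270 and 21710 to 45670, against 60240 to 83720 over the sham groups. The 8 neutrophil markers summed to 522.4 to 892.6, 645 to 4118 and 593.4 to 4704 after UUO, against 467.2 to 580.7 after sham, and 3 to 5 of them were at or under the 25th percentile on all arrays of a group. Of these 8, 0 rose and 2 fell in TIMP2-/-, 2 rose and 3 fell in TIMP3-/-, and 2 rose and 1 fell in WT. The falls were Elane and Mpo in TIMP2-/- (-0.53 and -0.57), Elane, Ngp and Mpo in TIMP3-/- (-0.61, -0.81 and -0.39) and Elane in WT (-0.5). S100a8 and S100a9, subunits of calprotectin, rose in TIMP3-/- (3.34 ± 0.87 and 3.10 ± 0.83, adjusted p = 0.00444 and 0.00526) and in WT (3.10 ± 0.87 and 2.47 ± 0.83, adjusted p = 0.014 and 0.035). These WT calls and that of Elane were lost without the 3 arrays that stood apart (adjusted p = 0.127, 0.28 and 0.177), as was the TIMP3-/- call of Mpo (0.178). Of 5 adipocyte markers 1, 4 and 4 rose in TIMP2-/-, TIMP3-/- and WT, and 1, 3 and 2 without those arrays. Fibroblast markers rose too, 6 of 7 in TIMP2-/- and all 7 in TIMP3-/- and WT, with sums of 48230 to 58400, 66460 to 141200 and 54520 to 109600, against 6256 to 10400 after sham. Of 8 lymphocyte and NK markers, 3 rose and 2 fell in TIMP2-/-, 2 rose and 4 fell in TIMP3-/-, and 3 rose and 1 fell in WT. Without the 3 arrays that stood apart, 3 rose in each genotype, and 2, 0 and 0 fell. Of 6 endothelial markers, 0, 3 and 3 rose and 1, 0 and 0 fell, or 2, 3 and 2 and 1, 0 and 0 without those arrays.

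Over the 9 UUO arrays, the mean log2 level of the macrophage list and of the proximal tubule list was set against each caspase, 14 relations in all, of which the r of 9 passed. The permutations ignored genotype, and r with genotype means removed was not computed here. These p-values thus mix differences between genotypes with variation among arrays. Casp4 followed the proximal tubule list inversely (r = -0.93, rho = -0.97, exact permutation p = 1.38e-05 and 0.000165, adjusted p = 0.000193 and 0.00231), and r was -0.99 without the 2 arrays farthest from that list's median. Casp9 followed it directly (r = 0.89, rho = 0.88, exact permutation p = 0.000182 and 0.00308, adjusted p = 0.00123 and 0.0108), and 0.92 without the 2 farthest. With the macrophage list, Casp4 gave r = 0.77 and rho = 0.88 (exact permutation p = 0.0149 and 0.00308, adjusted p = 0.0304 and 0.0108), and r was 0.88 without the 2 arrays farthest by the macrophage list. The other 6 were Casp12 (r = -0.86) and Casp1 (-0.80) with the tubule list, and Casp1 (0.84), Casp8 (0.74), Casp12 (0.72) and Casp9 (-0.77) with the macrophage list. Among these, rho did not pass for Casp1 with the tubule or macrophage list (exact permutation, adjusted p = 0.0622 and 0.0645). Nor did it for Casp8 with the macrophage list (adjusted p = 0.12). The r of Casp1 with the tubule list was -0.56 without the 2 farthest arrays. Casp2 passed with neither list (r = 0.15 and -0.06, exact permutation p = 0.694 and 0.871). How many of all genes follow these lists as closely was not counted, so the relations are not shown to be particular to caspases. The part of cell composition in the caspase differences was not tested.

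Genes around caspase-1 and caspase-4 rose where they changed. Of 15 measured inflammasome genes, 5 rose in TIMP2-/-, 9 in TIMP3-/- and 4 in WT, and none fell. With 1 probe set per gene, 37.2% of all genes passed in TIMP2-/- (15.7% higher and 21.6% lower), 64.4% in TIMP3-/- (25.6% higher and 38.8% lower) and 32.6% in WT (16.6% higher and 16% lower). Their median log2 fold change was 0.74, 1.12 and 0.37, against -0.12, -0.19 and -0.09 over all genes. Without the 3 arrays that stood apart, 8, 9 and 4 rose, and the WT median was 0.10. Of all genes, 44.4%, 55.8% and 18.8% then passed in TIMP2-/-, TIMP3-/- and WT. Pycard, the adaptor ASC that recruits caspase-1, rose by 1.2 ± 0.19 in TIMP2-/- (SE, adjusted p = 0.00039), 1.37 ± 0.19 in TIMP3-/- (adjusted p = 4.01e-05) and 1.83 ± 0.19 in WT (adjusted p = 6.24e-06). Gbp2, an interferon-induced GTPase that helps expose bacterial lipopolysaccharide to caspase-4, averaged 3402 in TIMP2-/- UUO, against 392.7 in TIMP2-/- sham. Its averages were 3454 in TIMP3-/- UUO, against 574.4 in TIMP3-/- sham, and 2964 in WT UUO, against 446.3 in WT sham, so it rose by 3.09 ± 0.22, 2.53 ± 0.22 and 2.71 ± 0.22 (adjusted p = 3.48e-07, 1.22e-06 and 8.19e-07). Among the substrates of caspase-1, Il18 rose by 0.81 ± 0.24 in TIMP2-/- (adjusted p = 0.0187) and 1.12 ± 0.24 in TIMP3-/- (adjusted p = 0.0013), and Il1b rose by 1.57 ± 0.44 in TIMP3-/- (adjusted p = 0.00638). Panx1, a pannexin channel, rose by 1.32 ± 0.22 in TIMP2-/-, 1.43 ± 0.22 in TIMP3-/- and 1.31 ± 0.22 in WT (adjusted p = 0.000522, 8.49e-05 and 0.000384). In TIMP3-/-, Naip5, a sensor of flagellin that was dim after sham (mean 25.3), rose by 1.57 ± 0.31 (adjusted p = 0.00074) and Nek7, a partner of NLRP3, by 1.75 ± 0.57 (adjusted p = 0.016), which was lost without the 3 arrays that stood apart (1.16, adjusted p = 0.0651). Txnip, an NLRP3 partner and inhibitor of thioredoxin, rose by 0.77 ± 0.13 in TIMP2-/-, 0.35 ± 0.13 in TIMP3-/- and 0.64 ± 0.13 in WT (adjusted p = 0.000647, 0.0286 and 0.00177).

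The death receptor list around caspase-8 was divided. Of 13 measured genes, 2 rose and 3 fell in TIMP2-/-, 2 rose and 4 fell in TIMP3-/-, and 3 rose and 2 fell in WT, with medians of -0.07, -0.16 and 0.01. Of all genes, 37.2%, 64.4% and 32.6% passed in TIMP2-/-, TIMP3-/- and WT, so these counts were near or under the general share. With the 3 arrays that stood apart left out, 3 rose and 3 fell in TIMP2-/-, 3 rose and 2 fell in TIMP3-/-, and 3 rose and 1 fell in WT. Tnfrsf1a, the receptor TNFR1, rose in each genotype (0.64 ± 0.20 in TIMP2-/-, 0.90 ± 0.20 in TIMP3-/- and 0.99 ± 0.20 in WT, adjusted p = 0.021, 0.00142 and 0.00149). Ripk3, the kinase of necroptosis that caspase-8 restrains, rose by 1.5 ± 0.36, 2.07 ± 0.36 and 1.56 ± 0.36 in TIMP2-/-, TIMP3-/- and WT (adjusted p = 0.00646, 0.000269 and 0.0044). Bid, a substrate that links caspase-8 to mitochondria, fell by 0.72 ± 0.16 in TIMP2-/-, 1.42 ± 0.16 in TIMP3-/- and 0.85 ± 0.16 in WT (adjusted p = 0.0038, 6.74e-06 and 0.000937). It averaged 1216 in TIMP2-/- UUO, against 740.8 in TIMP3-/- UUO, and that difference passed (0.73 ± 0.16, adjusted p = 0.0213), where 7.5% of all genes did. Fadd, the adaptor of caspase-8, fell by 0.70 ± 0.17 in TIMP3-/- (adjusted p = 0.00326). Cflar, the caspase-8 regulator FLIP whose gene is the neighbour of Casp8 on chromosome 1, fell in WT (-0.95 ± 0.20, adjusted p = 0.00248), a call lost without those 3 arrays (-0.67, adjusted p = 0.0637), and Traf2, an adaptor of TNFR1, rose there (1.01 ± 0.19, adjusted p = 0.00112).

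Around caspase-9, 6 of 15 measured genes of the apoptosome list rose and 1 fell in TIMP2-/-, 7 rose and 6 fell in TIMP3-/-, and 6 rose and 3 fell in WT. In these genotypes 37.2%, 64.4% and 32.6% of all genes passed. Without the 3 arrays that stood apart, 6 rose and 2 fell in TIMP2-/-, 6 rose and 5 fell in TIMP3-/-, and 2 rose and none fell in WT. The list medians were 0.17, 0.23 and 0.12. Apaf1, the scaffold that activates caspase-9, averaged 391.5 in TIMP3-/- UUO, against 70.46 in TIMP3-/- sham. It rose by 1.57 ± 0.32 in TIMP2-/-, 2.45 ± 0.32 in TIMP3-/- and 1.41 ± 0.32 in WT (SE, adjusted p = 0.00231, 2.2e-05 and 0.0038), where Casp9 itself was lower or did not pass. Pmaip1, the BH3-only protein Noxa, rose by 2.24 ± 0.63, 3.79 ± 0.63 and 1.79 ± 0.63 in these genotypes (adjusted p = 0.0145, 0.000182 and 0.0429), from sham means under the 25th percentile. Mcl1, which opposes mitochondrial death, rose by 1.12 ± 0.21 in TIMP2-/-, 1.60 ± 0.21 in TIMP3-/- and 0.95 ± 0.21 in WT (adjusted p = 0.00136, 2.35e-05 and 0.00303). Endog, a mitochondrial nuclease, fell by 1.14 ± 0.25 in TIMP2-/-, 1.80 ± 0.25 in TIMP3-/- and 0.76 ± 0.25 in WT (adjusted p = 0.00392, 4.12e-05 and 0.0322). It was higher in TIMP2-/- UUO than in TIMP3-/- UUO (1.00 ± 0.25, adjusted p = 0.0324). Aifm1, a mitochondrial flavoprotein, fell by 0.72 ± 0.21 in TIMP3-/- and 0.94 ± 0.21 in WT (adjusted p = 0.00844 and 0.00337). The WT calls of Mcl1, Endog and Aifm1 were lost without those 3 arrays (adjusted p = 0.0569, 0.06 and 0.0654).

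**Figure D5:**
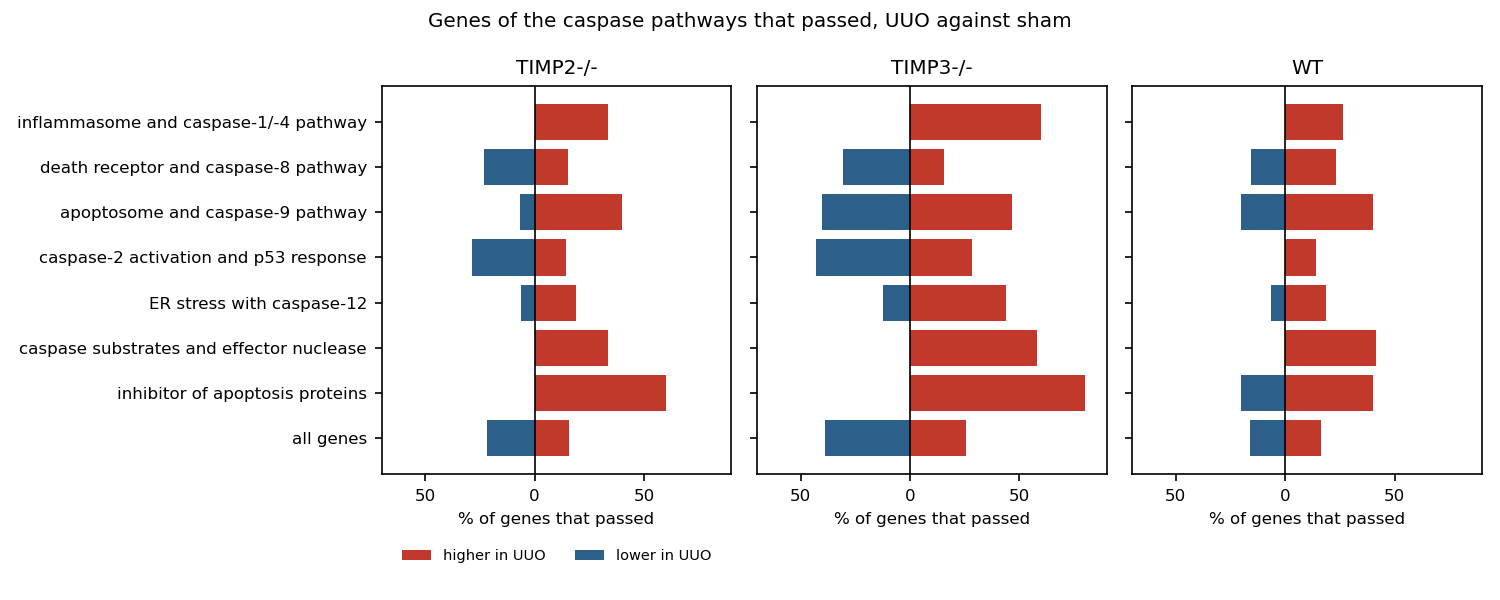
Share of measured genes that passed in UUO against sham (horizontal axis, percent), higher to the right and lower to the left, for each list and for all genes, by genotype. Lists hold 5 to 16 measured genes. In the inflammasome and substrate lists the bars run to the right alone, and in the apoptosome list of TIMP3-/- they run both ways.

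Inhibitor of apoptosis genes rose in part. Of 5 measured inhibitor of apoptosis genes, 3 rose in TIMP2-/-, 4 in TIMP3-/- and 2 in WT, where 1 fell, with medians of 1.70, 2.18 and 0.64. In these genotypes 15.7%, 25.6% and 16.6% of all genes rose. Birc3, a ubiquitin ligase of TNF signalling, rose by 2.23 ± 0.18 in TIMP2-/-, 2.25 ± 0.18 in TIMP3-/- and 1.84 ± 0.18 in WT (SE, adjusted p = 9.43e-07, 6.06e-07 and 3.59e-06). Birc2, its close relative, rose by 1.70 ± 0.37 in TIMP2-/- and 2.18 ± 0.37 in TIMP3-/- (adjusted p = 0.00328 and 0.000186). Birc5, survivin, which also serves cell division, rose by 3.17 ± 0.34, 3.09 ± 0.34 and 3.17 ± 0.34 in TIMP2-/-, TIMP3-/- and WT (adjusted p = 1.1e-05, 5.64e-06 and 7.43e-06), with sham means near background (50.42, 63.92 and 41.4). Xiap, the direct inhibitor of caspase-9, rose by 2.13 ± 0.70 in TIMP3-/- (adjusted p = 0.0167), and Birc6, a very large member of the family, fell by 1.03 ± 0.29 in WT (adjusted p = 0.0148). Both calls were lost without the 3 arrays that stood apart (1.41, adjusted p = 0.087, and -0.93, adjusted p = 0.0758), so that 3, 3 and 2 rose in TIMP2-/-, TIMP3-/- and WT and none fell.

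Among 12 genes whose proteins caspases cut or that carry out DNA cleavage, 4 rose in TIMP2-/-, 7 in TIMP3-/- and 5 in WT, and none fell. Of all genes, 15.7%, 25.6% and 16.6% rose in these genotypes, and 21.6%, 38.8% and 16% fell. Vim, vimentin, rose by 2.49 ± 0.28, 2.95 ± 0.28 and 2.81 ± 0.28 in TIMP2-/-, TIMP3-/- and WT (SE, adjusted p = 1.71e-05, 1.97e-06 and 3.73e-06), and Krt18, keratin 18, by 1.94 ± 0.31, 2.56 ± 0.31 and 2.86 ± 0.31 (adjusted p = 0.000414, 1.28e-05 and 9.25e-06). Lmna, the lamin A gene whose product caspase-6 cuts, rose by 0.78 ± 0.23 in TIMP3-/- and 1.15 ± 0.23 in WT (adjusted p = 0.00946 and 0.00173). Gsn, gelsolin, rose by 1.03 ± 0.26 in TIMP3-/- and 1.44 ± 0.26 in WT (adjusted p = 0.00412 and 0.000873). Lmnb1, lamin B1, rose by 0.69 ± 0.16 in TIMP2-/-, 1.19 ± 0.16 in TIMP3-/- and 0.74 ± 0.16 in WT (adjusted p = 0.00606, 3.79e-05 and 0.00353), and Sptan1, alpha spectrin, by 0.34 ± 0.12 in TIMP2-/- (adjusted p = 0.0372). In TIMP3-/-, Top1, topoisomerase I, rose by 1.80 ± 0.53 and Rock1, a kinase of membrane blebbing, by 1.90 ± 0.69 (adjusted p = 0.00925 and 0.026). The Rock1 call was lost without the 3 arrays that stood apart (1.18, adjusted p = 0.165), and 4, 6 and 5 genes then rose.

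The endoplasmic reticulum stress list that goes with caspase-12 had 16 measured genes, of which 3 rose and 1 fell in TIMP2-/-, 7 rose and 2 fell in TIMP3-/-, and 3 rose and 1 fell in WT, with medians of 0.33, 0.38 and 0.19. In these genotypes 37.2%, 64.4% and 32.6% of all genes passed, so the list was under the general share. Its counts were 4 and 2, 7 and 1, and 2 and 1 without the 3 arrays that stood apart. Capn2, a calpain reported to cleave caspase-12 in mouse cells, rose by 1.01 ± 0.14 in TIMP2-/-, 1.24 ± 0.14 in TIMP3-/- and 0.80 ± 0.14 in WT (SE, adjusted p = 0.000157, 9.16e-06 and 0.000747). Hspa5, the chaperone BiP, averaged 7499 in TIMP3-/- UUO, against 2979 in TIMP3-/- sham, and rose by 1.36 ± 0.29 there and by 0.97 ± 0.29 in TIMP2-/- (adjusted p = 0.00122 and 0.0197). Hsp90b1, the chaperone GRP94, rose by 1.52 ± 0.45 in TIMP3-/- (adjusted p = 0.00983), and Eif2ak3, the stress sensor PERK, by 0.81 ± 0.18 in TIMP2-/- and 0.90 ± 0.18 in TIMP3-/- (adjusted p = 0.00428 and 0.000781). Herpud1, a component of protein degradation at the endoplasmic reticulum, fell in each genotype (-0.88 ± 0.15, -1.43 ± 0.15 and -0.60 ± 0.15, adjusted p = 0.000782, 5.15e-06 and 0.00839). Atf4, a stress transcription factor, rose by 0.60 ± 0.17 in TIMP3-/- and 0.58 ± 0.17 in WT (adjusted p = 0.00811 and 0.02), the WT call being lost without those arrays (0.32, adjusted p = 0.238). Capn1, a calpain, rose by 0.60 ± 0.16 in WT (adjusted p = 0.0102).

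In the caspase-2 and p53 list of 7 measured genes, 1 rose and 2 fell in TIMP2-/-, 2 rose and 3 fell in TIMP3-/-, and 1 rose in WT, with medians of 0.47, 0.49 and -0.30. These counts were equal without the 3 arrays that stood apart. With all arrays, 37.2%, 64.4% and 32.6% of all genes passed in TIMP2-/-, TIMP3-/- and WT. Cdkn1a, the p53 target p21, rose by 1.58 ± 0.24, 1.88 ± 0.24 and 2.06 ± 0.24 (SE, adjusted p = 0.000289, 2.09e-05 and 1.9e-05). Cradd, the adaptor RAIDD that recruits caspase-2, fell by 0.54 ± 0.18 in TIMP2-/- and by 1.00 ± 0.18 in TIMP3-/- (adjusted p = 0.0342 and 0.000368), and Pidd1, the scaffold of the PIDDosome, fell by 0.59 ± 0.14 in TIMP2-/- and by 0.67 ± 0.14 in TIMP3-/- (adjusted p = 0.00552 and 0.000991), while Casp2 was higher. In TIMP3-/-, Mdm2, the ligase that restrains p53, rose by 1.19 ± 0.34 and Sesn2, a p53-induced sestrin, fell by 0.76 ± 0.20 (adjusted p = 0.00695 and 0.00431). Casp14, a caspase of skin, averaged 19.59, 19.36 and 18.26 in TIMP2-/-, TIMP3-/- and WT UUO, against 23.47, 26.64 and 26 in their sham groups, all under the 25th percentile, with calls of lower in TIMP3-/- and WT (-0.46 ± 0.14 and -0.52 ± 0.14, adjusted p = 0.0117 and 0.0132). The TIMP3-/- call of Casp14 was lost without the 3 arrays that stood apart (-0.39, adjusted p = 0.0577). Between a knockout and WT after UUO, no gene of these lists passed, where 0.0242% of all genes did in TIMP2-/- and 0.557% in TIMP3-/-. Leaving out the 3 arrays that stood apart, 4 passed in TIMP3-/- UUO against WT UUO, where 3.86% of all genes did. They were Il18 (1.16, adjusted p = 0.0226), Lmnb1 (0.75, adjusted p = 0.0282), Cdkn1a (0.72, adjusted p = 0.0483) and Endog (-0.99, adjusted p = 0.04).

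Genes most like each caspase across the 18 arrays were ranked by Pearson's r of log2 intensity, as a description. The arrays fall into UUO and sham clusters, which the r over all arrays reflects, so r within each set of 9 is given too. Casp4 was most like Gm20559 (0.977), Apaf1 (0.977) and Fam3c (0.974), with r of 0.97, 0.93 and 0.93 within UUO and 0.58, 0.74 and 0.79 within sham. Casp12, by 1418981_at, was most like Ncapg2 (0.968), Plek (0.96) and Shcbp1 (0.955), with r of 0.96, 0.95 and 0.95 within UUO but 0.22, 0.24 and 0.10 within sham. Casp1 was most like Ccn3 (0.956), Vcan (0.947) and Olr1 (0.943), with r of 0.93, 0.91 and 0.95 within UUO but 0.58, 0.60 and 0 within sham. Casp2 was most like Cdk4 (0.978), Tnip1 (0.97) and Nfkb2 (0.968), which held within sham (0.94, 0.86 and 0.95) and less within UUO (0.79, 0.80 and 0.64). Casp9 was most like Zfp688 (0.983), Mapk8ip1 (0.979) and Lsm14b (0.979), with r from 0.94 upward within UUO and within sham. Casp8 was most like Tcp1 (0.9), Dnttip2 (0.88) and Rbm6 (0.88), with r of 0.93, 0.91 and 0.88 within UUO and 0.75, 0.83 and 0.87 within sham. Casp6 was most like Ttc1 (0.897), Pdcd6 (0.88) and Tmem218 (0.879), with r of 0.80, 0.73 and 0.64 within UUO and 0.91, 0.87 and 0.83 within sham.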

How the data were processed

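Total RNA of 18 whole kidneys was hybridised to Affymetrix Mouse430A_2 arrays. The deposited values are linear intensities per probe set, and per the submitters' processing notes RMA was used. Its version, and the step from its usual log2 output to linear values, are not given in the sources used here. Array medians differ slightly (201 to 247), and a shift of all transcripts in 1 direction may be hidden by normalization. The number of arrays, 3 per group, limits precision. Values were taken to log2 with no pseudocount, and 64 control probe sets were left out. Of 22626 probe sets, 20380 had 1 gene symbol, 691 several and 1555 none, and a probe set of the last 2 kinds named no gene. The annotation names 12393 genes, of which 12369 matched the RefSeq table (GRCm38.p6), which changed no caspase symbol.

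One limma 3.58.1 model (R 4.3.3) with 6 group means was fitted to all probe sets, with 12 residual and 3.28 prior degrees of freedom, for 11 comparisons. P-values were adjusted by Benjamini-Hochberg over all probe sets within each comparison. They measure the spread between samples that the labels call biological replicates. An exact 2-sided permutation test of 3 against 3 cannot go below 0.1, so single probe sets rest on the pooled spread. The script was tested on simulated data. Pathway and marker lists use each gene's brightest probe set, the one with the highest mean over all arrays, and keep the p adjusted over all probe sets.

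Every caspase probe set was to be named in every comparison; between genotypes, differences of responses that did not reach an unadjusted p under 0.05 are given mostly by their range. From each pathway list, at most 4 called genes with the largest change per comparison were named, and the 3 genes most like each caspase. A gene named in 1 genotype is given in each genotype where it passed, also where that goes past the limit of 4. The members and lists were chosen with earlier results of these data known. No scan or hybridisation batch is given by the labels. Alternatives were the arrays in the fit, a replicate block, leaving out arrays, a filter on dim probe sets, 1 probe set per gene, a pseudocount of 32, median centring, quantile normalization, an intensity trend and array weights. Correlations over the UUO arrays, and the lists without the 3 arrays that stood apart, were chosen after seeing the data.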

Additional observations from a re-analysis of the deposited data

How the results depend on the processing

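Of the 18 fold changes of called caspase probe sets, none reversed in 281 values under the alternatives: 236 stayed past the threshold and 45 did not. Leaving out 1 array at a time gave 2 to 4 called caspase probe sets in WT (3 with all arrays), 2 to 6 in TIMP2-/- (4, and 2 without TIMP2-/- UUO 1 or TIMP2-/- UUO 2) and 6 to 8 in TIMP3-/- (8). Between obstructed genotypes it gave 0 to 4 for TIMP3-/- against WT (1), 0 to 7 for TIMP2-/- against TIMP3-/- (2), the highest counts both without TIMP3-/- UUO 3, and 0 to 1 for the TIMP2-/- less TIMP3-/- response (0). With only the arrays compared, 8 passed in TIMP2-/-, 0 in TIMP3-/- UUO against WT UUO and 0 in TIMP2-/- UUO against TIMP3-/- UUO. That last comparison gave 1 with 1 probe set per gene, 1 with quantile normalization, 1 with an intensity trend and 0 without the 3 arrays that stood apart, when TIMP2-/- gave 7. Median centring gave 2 in TIMP2-/- and 5 in WT, and lowered the median of all probe sets to -0.27, -0.41 and -0.25 in TIMP2-/-, TIMP3-/- and WT, against -0.12, -0.18 and -0.12. The share of calls that were higher became 25.5%, 27.2% and 32.2%, against 40.2%, 40% and 47.7%. Array weights, fitted gene by gene after the joint estimate did not reach its tolerance, gave 7 in WT, 9 in TIMP2-/-, 2, 5 and 5 between the obstructed genotypes, 1 in TIMP2-/- sham against WT sham, and 1, 5 and 1 for the differences between responses. The share of all probe sets that passed under each alternative is not given here. These counts are thus not shown to be particular to caspases. The cause of these changes was not tested.

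The labels' replicate numbers paired the arrays only in part. Same-numbered arrays of different groups had deviations that correlated from -0.58 to 0.67, over 0.1 in 24 of 45 pairs. Differently numbered arrays ranged from -0.75 to 0.75, and 8 of 18 arrays were closest to their own number. The arrays numbered 3 outside WT sham all correlated positively with each other (0.22 to 0.67). WT sham 3 ran opposite to them (-0.58 to -0.32). What these arrays share was not tested. With the number as a replicate block, 6 caspase probe sets passed in TIMP2-/-, 8 in TIMP3-/- and 4 in WT, and 0, 1 and 2 between the obstructed genotypes. The share of all probe sets that passed with this block is likewise not given. Dim signal limits Casp1, Casp4 and Casp12 1449297_at after sham, with all 9 sham arrays at or under the 25th percentile. For Casp12 1418981_at this held for 2 sham arrays.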
